A study of Mus musculus with 20 samples.

Results

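The milk protein loci of the mouse were examined here for open chromatin: the casein cluster on chromosome 5, with Csn1s1, Csn2, Csn1s2a, Csn1s2b and Csn3, and the Wap gene on chromosome 11. Members were all entries of 14 deposited region lists that shared at least 1 bp with chr5:88000000-88450000 (450 kb) or chr11:6485000-6590000 (105 kb), in the mm9 build. They numbered 80 of 311468 entries, with 48 in the casein window and 32 in the Wap window. The peak lists gave 75 of them, and the other lists 5.

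Open chromatin had been measured by ATAC-seq, in which the transposase Tn5 inserts adapters into accessible DNA, on nuclei of sorted cells. The groups used here were wild-type C57BL6J cells, with 2 samples of each type: fetal mammary stem cells (fMaSC) from embryos at day 18, and basal, luminal progenitor and mature luminal cells of the adult gland. To these came luminal cells of tumours that the C57BL6J mammary tumour line PY230 formed after transplantation into syngeneic mice, with 3 SOX10-high and 3 SOX10-low samples. PY230 is 1 line, and the sorting gates, the age of adult donors in weeks and their reproductive state are not given in the sources used here. Each peak list combined both samples of a type, so the spread between samples is unknown and comparisons between types are descriptions without a test. No counts per sample were used, so sequencing depth is unknown, and both the number and the width of called peaks move with it. In sorted bulk samples, fewer cells of a type and less open chromatin per cell cannot be told apart. Labelled cell types were not checked against marker genes, because no mm9 gene positions were at hand.

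Caseins are the main proteins of milk, where they form micelles with calcium phosphate. Csn1s1 encodes an alpha casein, Csn2 beta casein and Csn3 kappa casein, which keeps the micelles in suspension. Csn1s2a and Csn1s2b encode the gamma and delta caseins of rodents. Wap encodes whey acidic protein, a major soluble protein of rodent milk. In pregnancy and lactation these genes are switched on in alveolar luminal cells by prolactin, which acts through the transcription factor STAT5, together with glucocorticoids. Luminal progenitors include precursors of the alveolar cells, whereas mature luminal cells are mostly hormone-sensing, and basal cells are contractile.

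All 6 genes were found by symbol in the RefSeq gene table of GRCm38.p6, another build, which was used for names, order and strand only. In that order Csn1s1 and Csn2 came first, followed after 2 pseudogenes by Csn1s2a and Csn1s2b. The protein-coding genes Prr27, Odam and BC037156 stood between Csn1s2b and Csn3. Wap stood between Tbrg4 with 2 small nucleolar RNA genes on the lower-coordinate side and the pseudogene Gm11978 and Ramp3 on the other. The mm9 position of Wap was taken from the definition of the window, about 6.535 to 6.539 Mb, while single casein genes were not placed in mm9. Casein sites are therefore given by position and not assigned to a gene.

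Promoter sequences, the 250 bases before the annotated start of each gene (RefSeq, GRCm38.p6), were matched for 4 of 6 genes: Csn1s1, Csn2, Csn1s2a and Wap. Csn1s2b and Csn3 were not matched. Csn1s1 and Csn2 are shown because they head the casein cluster and share an element at nearly the same place, and Wap because the region lists described further on reach its position. Capitals mark every match, on either strand, to any of 7 motifs. The element to which STAT5 binds, named GAS, was searched as TTCNNNGAA. For the factor NFI the core of the known site was searched, TTGGC, and for C/EBP factors TTGCNNAA. The core shared by the glucocorticoid and progesterone receptor sites was searched as AGAACA, and the core bound by SOX proteins as AACAAT. For the TATA box the usual TATAAA was searched, and as a variant of it TTTAAA.
Csn1s1 (plus strand): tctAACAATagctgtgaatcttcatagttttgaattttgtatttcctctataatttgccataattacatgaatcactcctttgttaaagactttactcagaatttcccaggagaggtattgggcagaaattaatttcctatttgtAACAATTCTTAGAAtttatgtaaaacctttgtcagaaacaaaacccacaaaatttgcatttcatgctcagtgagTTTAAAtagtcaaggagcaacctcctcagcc
Csn2 (minus strand): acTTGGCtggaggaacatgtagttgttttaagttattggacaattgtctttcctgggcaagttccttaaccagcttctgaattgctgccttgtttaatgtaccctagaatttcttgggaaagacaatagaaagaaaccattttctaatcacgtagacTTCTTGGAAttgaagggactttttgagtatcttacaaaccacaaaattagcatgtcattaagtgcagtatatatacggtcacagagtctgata
Wap (minus strand): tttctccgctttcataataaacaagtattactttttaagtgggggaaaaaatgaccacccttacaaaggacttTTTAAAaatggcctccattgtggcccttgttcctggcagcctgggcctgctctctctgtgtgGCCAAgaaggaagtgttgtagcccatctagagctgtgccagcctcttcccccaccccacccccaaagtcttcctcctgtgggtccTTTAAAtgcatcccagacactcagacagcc

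In Csn1s1 the GAS match TTCTTAGAA began 100 bases before the start, and in Csn2 the GAS match TTCTTGGAA began 93 bases before it. Wap had no GAS match in this window. It held an NFI core, read on the opposite strand, that began 115 bases before the start. The TATA variant TTTAAA began 31 bases before the start of Csn1s1 and 30 bases before that of Wap, which held another at 177 bases. Csn2 had an NFI core at 248 bases, and Csn1s1 had SOX-type matches at 247 and 105 bases, the second of which shares 1 base with its GAS match. Csn1s2a carried 1 receptor core on the opposite strand, 59 bases before the start, and a GAS match that began at base 21 after the start. Counted over the whole 300-base table entry, which reaches 50 bases past the start, GAS was present in 3 of these 4 promoters and in 8.30% of 32851 promoters in the table. The NFI core was present in 2 of 4 against 46.7%, TTTAAA in 2 of 4 against 13.2%, AACAAT in 1 of 4 against 10.7% and AGAACA in 1 of 4 against 19.0%. TATAAA (13.6% of promoters) and TTGCNNAA (10.8%) matched none of the 4. These matches describe the reference sequence and are not measurements of binding.

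At the casein cluster the cell types differed in the number of peaks more than at Wap. Luminal progenitors had 20 peaks there and fMaSC 15, compared with 6 in mature luminal and 5 in basal cells. The luminal progenitor list was the shortest of the 4, so these 20 peaks were 0.0333% of its 60030 nuclear peaks, whereas the 5 basal peaks were 0.00623% of 80294. The fMaSC peaks made up 0.0188% of 79910 and the mature luminal peaks 0.00974% of 61584. Peaks covered 12159 bp of the window in luminal progenitors and 10612 bp in fMaSC, against 2860 bp in basal and 3390 bp in mature luminal cells. Across 5461 tiles of 450 kb that held any peak, the median was 8 peaks for luminal progenitors and 11 for basal cells, the reverse of the order at the caseins. Luminal progenitors had at least 4 times as many peaks as basal cells in 4.56% of tiles, a ratio set after the window's values were seen, and the most peaks of the 4 types in 6.12%. No lower limit on peak number was set, so a tile with a lone luminal progenitor peak and no other peak counted in both shares. They are therefore not the frequency of an excess as large as 20 against 5. By its own list, however, the luminal progenitor count was not rare, since 20.5% of tiles held at least 20 of its peaks.

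**Figure D1:**
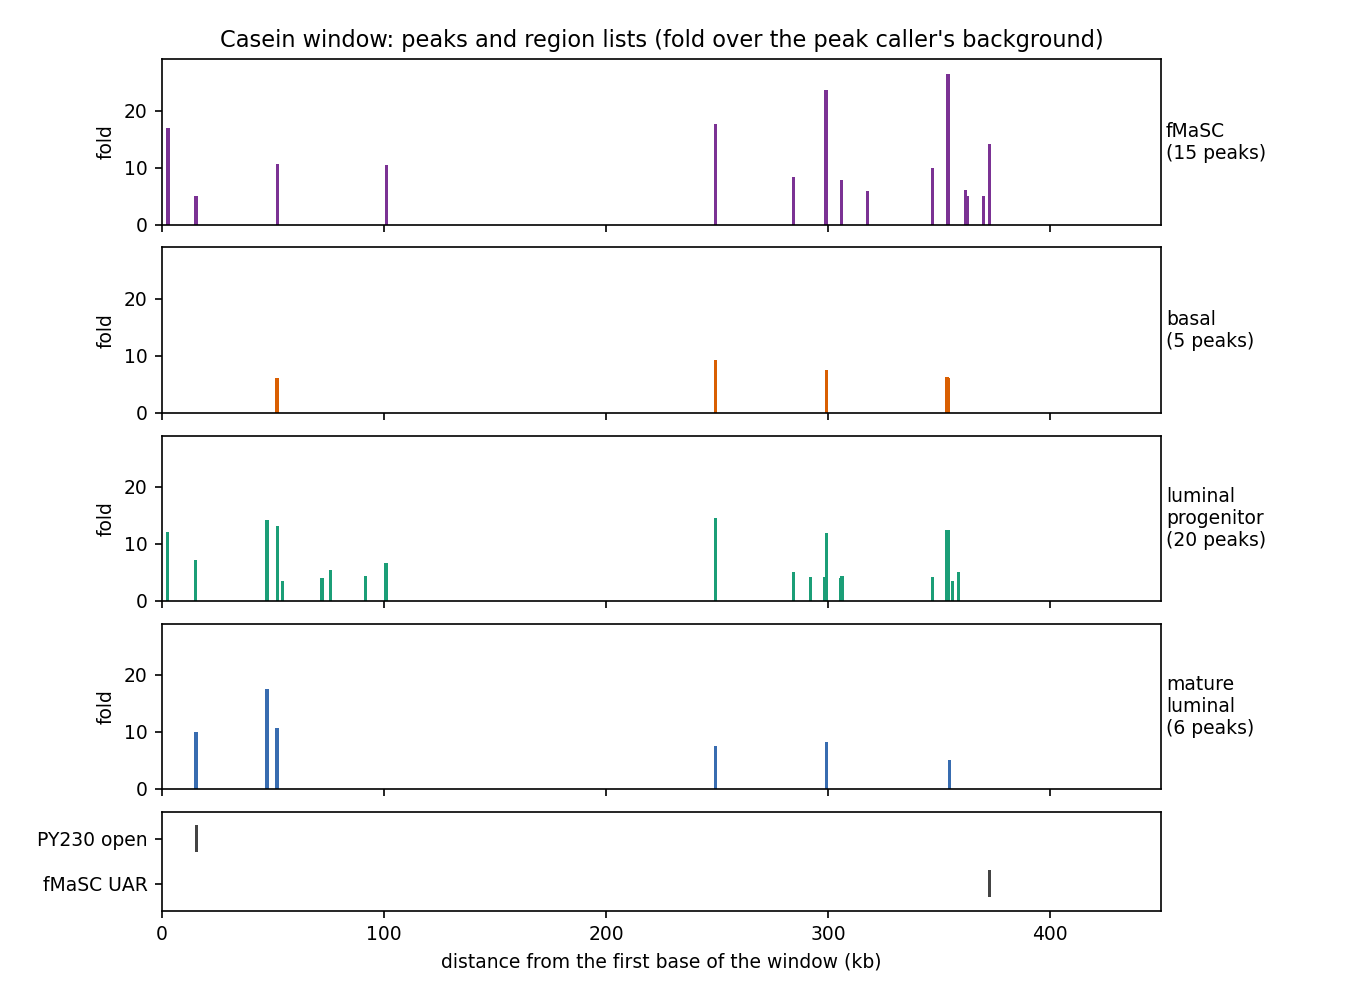
Peaks of the 4 normal cell types in the casein window, and entries of the fMaSC UAR and PY230 open lists below. The horizontal axis is the distance in kb from the first base of the window, and bar height is the authors' fold of each peak over its background. Bars narrower than 1.5 kb are drawn at that width. Luminal progenitors (20 peaks) and fMaSC (15) have peaks on both sides of the gap, while basal (5) and mature luminal cells (6) have few peaks. A stretch of 147.6 kb near the middle has none.

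Luminal progenitor peaks at the caseins were numerous but mostly low. Peak height is given as a fold, the enrichment over background from the authors' peak caller, and folds are ranked only within their own list. Of the 20 luminal progenitor peaks, 13 lay below the list's median fold of 6.86, and their own median was 4.99, with 23.7% of the list lower than that. By width, their median stood above 38.8% of the list. The lowest had a fold of 3.53, close to the lowest value in the list, 3.12. Of the 15 fMaSC peaks, 10 reached the list's median of 7.60, with a median of 9.88 and a highest fold of 26.3. Only 1 of 5 basal peaks reached its list's median of 7.98, and 3 of 6 mature luminal peaks reached theirs of 8.47. Each list was also reduced to its 30015 strongest peaks, a number set from the luminal progenitor list, the shortest. In that list the cut falls near the median fold, and it removes a larger share of the longer lists. The counts then became 8 in fMaSC, 7 in luminal progenitors, 3 in mature luminal cells and 0 in basal cells. The lead of luminal progenitors over fMaSC thus rested on low peaks, whereas both kept more peaks than the other types.

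**Figure D2:**
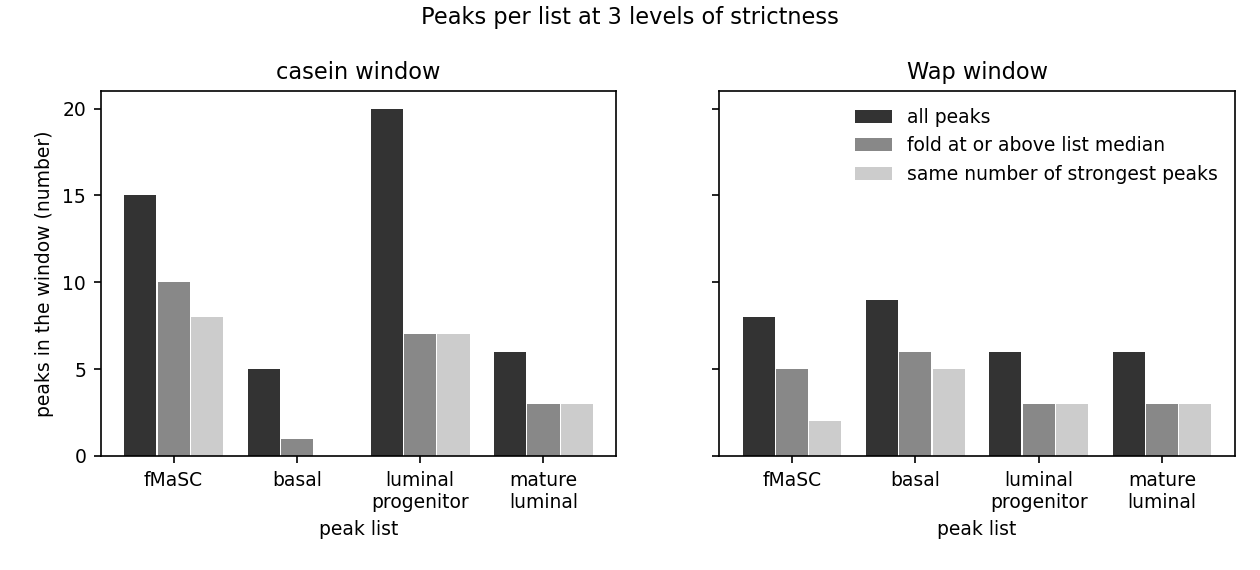
Number of peaks in the casein window (left) and the Wap window (right) for each peak list, with all peaks, with peaks that reach the median fold of their list, and with the 30015 strongest peaks of every list. At the caseins luminal progenitors fall from 20 to 7 peaks and fMaSC from 15 to 8. Basal cells fall from 5 to 0 at the caseins and from 9 to 5 at Wap.

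Merging the 4 lists gave 23 sites in the casein window, and the sites with a basal peak were the same as those with a peak in every type. A peak in all 4 types was present at 4 sites (17.4%), against 21.7% of all 128800 merged regions. Another 7 sites (30.4%) had a peak in luminal progenitors alone, a class that made up 4.76% of merged regions. A further 5 sites (21.7%) were shared by fMaSC and luminal progenitors and no other type, against 2.07%. fMaSC alone accounted for 5 sites (21.7%, against 13.5%). No site was basal alone, against 15.5%, and none was mature luminal alone, against 12.2%. The remaining 2 sites were one with a peak in every type but basal and one held by luminal progenitor and mature luminal cells. In all, luminal progenitors had a peak at 18 of 23 sites, fMaSC at 15, mature luminal cells at 6 and basal cells at 4. Luminal progenitors had a peak without a basal peak at 14 sites (60.9%, against 11.6% of merged regions), and the opposite occurred at 0 sites, against 28.6%.

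**Figure D3:**
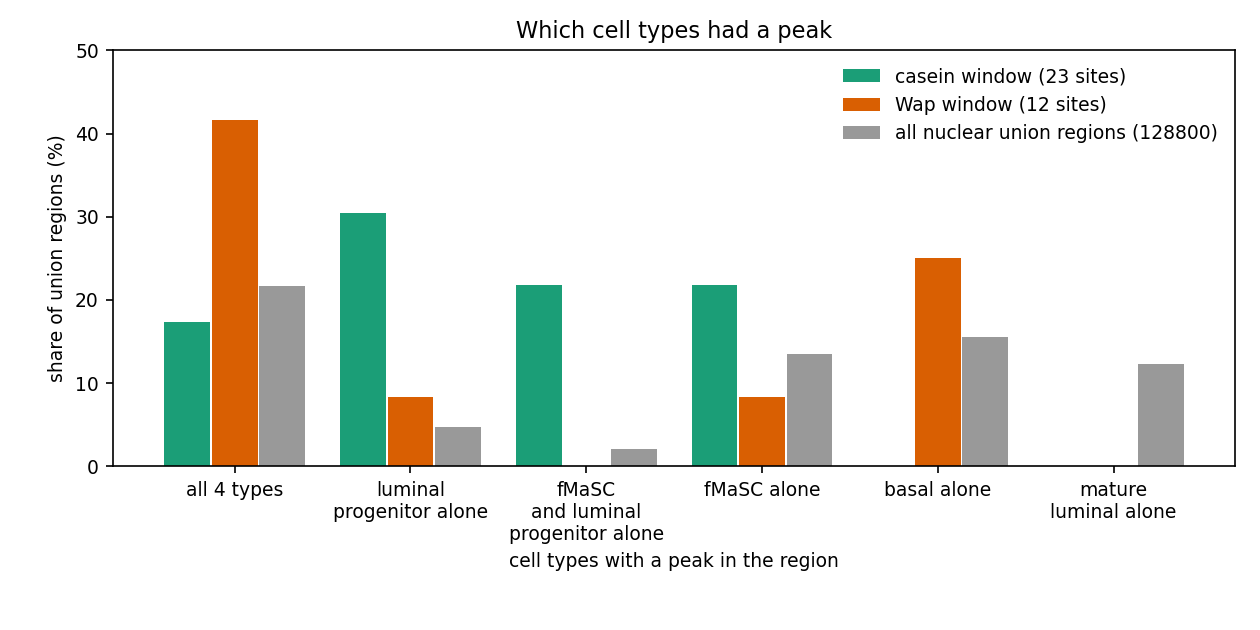
Share of merged regions by the cell types that had a peak, for the casein window (23 sites), the Wap window (12 sites) and all nuclear merged regions (128800). Bars start at 0. At the caseins, regions of luminal progenitors alone (30.4%) and of fMaSC with luminal progenitors (21.7%) are frequent, whereas at Wap regions of all 4 types (41.7%) and of basal cells alone (25.0%) lead when all peaks are used.

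The 4 casein sites shared by all types included the 3 highest fMaSC peaks of the window. The widest, chr5:88352901-88354941, had a fold of 26.3 in fMaSC, rank 2439 of 79910, with a peak 1992 bp wide. Luminal progenitors covered the same site with 1 peak of 1948 bp at a fold of 12.5, rank 11811 of 60030. Basal cells had 2 separate peaks of 498 and 695 bp at folds of 6.25 and 6.04, and mature luminal cells 1 peak of 384 bp at a fold of 4.98, rank 53069 of 61584. The site was thus broad in the fetal and progenitor lists. In the basal list it was split and low, with 1193 bp covered, and in the mature luminal list it was small. At chr5:88298388-88299831 fMaSC had a fold of 23.5 over 1375 bp, rank 4123. Luminal progenitors had 2 peaks there with folds of 11.8 and 4.16, basal cells 1 peak at 7.54 and mature luminal cells 1 at 8.22. Both fMaSC and luminal progenitors again stood higher in their lists than the other types did in theirs.

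At chr5:88248859-88249603 the site ranked alike in fMaSC (fold 17.7, above 87.0% of its list) and luminal progenitors (fold 14.5, above 85.5%). This was the strongest casein peak of luminal progenitors, and also that of basal cells, at a fold of 9.27, which exceeded 56.4% of the basal list. In mature luminal cells it had a fold of 7.47 and exceeded 41.5% of the list. At chr5:88051504-88052455 luminal progenitors ranked highest, with a fold of 13.1 above 81.6% of the list. The peak of fMaSC there had a fold of 10.6 (above 67.6%), that of mature luminal cells 10.7 (above 62.8%) and that of basal cells 6.04 (above 30.7%). Across the 4 shared casein sites the lowest place was thus basal at 2 and mature luminal at the other 2. The lists differ in length, and by plain rank mature luminal cells (22208) stood before fMaSC (25016) at chr5:88051504-88052455, and luminal progenitors (8411) before fMaSC (10034) at chr5:88248859-88249603.

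**Figure D4:**
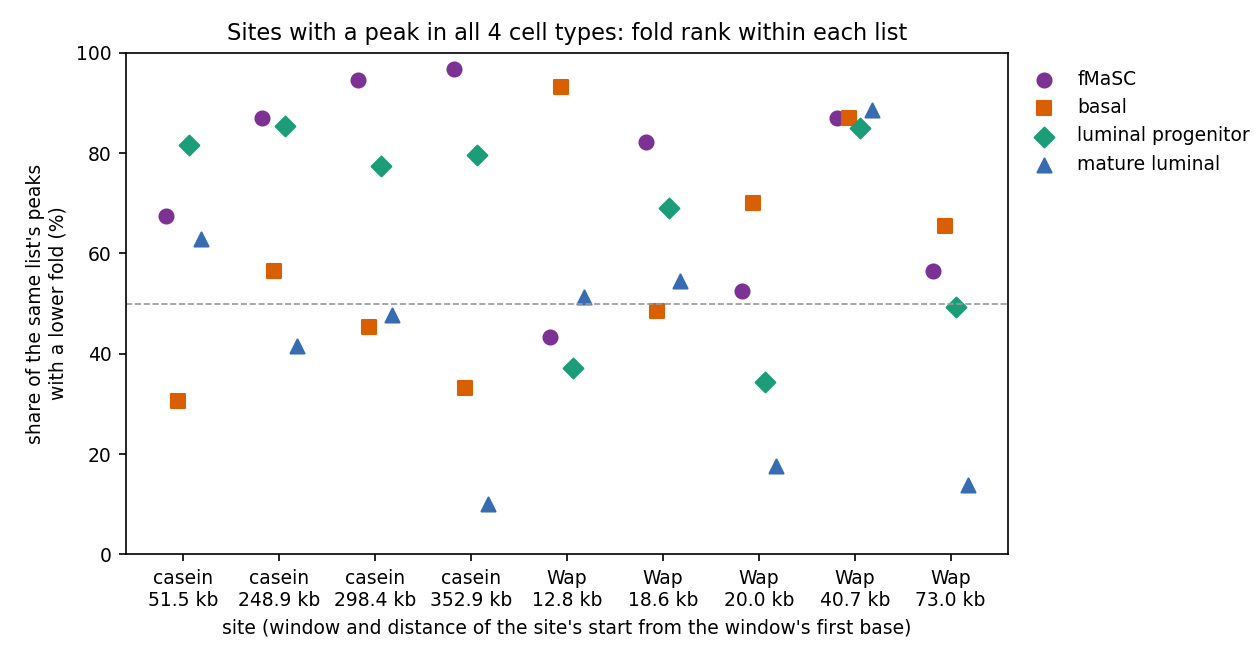
The 9 sites with a peak in all 4 cell types. The vertical axis is the share of the same list's nuclear peaks with a lower fold, in percent, taking the higher peak where a type has more than 1, and the dashed line is 50%. At the 4 casein sites fMaSC and luminal progenitors lie between 67.6% and 96.8%, and basal and mature luminal cells between 10.0% and 62.8%. The lists differ in length, and at 51.5 kb mature luminal cells come before fMaSC by plain rank. At Wap the order changes from site to site, and at 40.7 kb all 4 types lie between 85.0% and 88.6%.

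The luminal types had their own strong site near the start of the window. At chr5:88046907-88047622 mature luminal cells had a fold of 17.4 over 672 bp, their highest at the caseins, and luminal progenitors a fold of 14.1 over 694 bp. These ranked 9189 of 61584 and 9007 of 60030, above 84.5% of either list, and neither fMaSC nor basal cells had a peak there. Another site, chr5:88014827-88015559, had a peak in every type but basal. Its fold was 9.96 in mature luminal cells (above 59.0% of the list), 7.07 in luminal progenitors (above 51.3%) and 5.06 in fMaSC (above 14.0%). The latter site is the one that also appeared in the tumour list, as described with the PY230 regions.

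Sites shared by fMaSC and luminal progenitors alone lay on both sides of a long stretch without peaks. The first, chr5:88001804-88003065, was high in both, with a fold of 17.0 in fMaSC (above 85.8% of its list) and 12.1 in luminal progenitors (above 78.2%). At the other 4 the fMaSC peak ranked higher than the luminal progenitor peak. Folds at these 4 were 7.85 to 10.4 in fMaSC and 4.16 to 6.65 in luminal progenitors, counting the higher peak at chr5:88305504-88306582, where luminal progenitors had 2. The 7 sites of luminal progenitors alone were weak by contrast, with folds from 3.53 to 5.40 and widths from 242 to 713 bp. All 7 were below the list's median fold. In this list the cut at the 30015 strongest peaks falls near that median, so the 0 sites left in the class follow from it. Over the genome the class then made up 7.41% of merged regions.

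Sites of fMaSC alone gathered at the far end of the part of the casein window that held entries. Beyond chr5:88373300 no list had an entry up to the end of the window at chr5:88450000. After chr5:88317635-88318038, with a fold of 5.82, the other 4 lay from chr5:88361739 onwards, beyond the last peak of any adult type. The outermost, chr5:88372294-88372977, had the highest fold of the 5 at 14.2, above 79.7% of the fMaSC list. It was covered by an entry of the fMaSC UAR list, chr5:88372001-88373300. UAR and URR lists were deposited for each normal type, and the labels do not spell these names out. This UAR had a score of 1537, rank 579 of 1222, and overlapped a peak of fMaSC and of no other type, as did 901 of 1222 fMaSC UARs (73.7%). It was the sole UAR or URR at the caseins, so that 1 of 15 fMaSC peaks lay in an fMaSC UAR, against 1.7% of all fMaSC peaks.

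Between the first 9 and the last 14 casein sites no list had an entry for 147.6 kb, from chr5:88101259 to chr5:88248858. This was picked as the longest gap of the window. Gaps of at least this length made up 1.66% of the 128780 gaps between neighbouring merged regions, whose median was 6.39 kb. That share is for single gaps and does not say how often a window with as many sites holds 1 such gap. Luminal progenitors had 9 peaks before the gap and 11 after it, fMaSC 4 and 11, mature luminal cells 3 and 3, and basal cells 1 and 4. Mature luminal peaks were higher before the gap, with folds of 9.96 to 17.4, than after it, with folds of 4.98 to 8.22. In fMaSC the 3 highest folds, 26.3, 23.5 and 17.7, all lay after the gap.

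The Wap window showed another pattern, with the most peaks in basal cells, but in nearly equal shares of the 4 lists. Basal cells had 9 peaks, fMaSC 8, and luminal progenitor and mature luminal cells 6 each. Peaks covered 8642 bp in basal cells, 5080 bp in fMaSC, 4510 bp in the progenitors and 3848 bp in mature luminal cells. Of 12 merged sites, 5 (41.7%) had a peak in all 4 types, against 21.7% of all merged regions. With the 30015 strongest peaks per list this turned, since 1 of 6 Wap sites then had a peak in all 4 types, against 25.3% over the genome. Basal cells alone then held 2 of 6, against 10.9%, neither of them basal alone with all peaks. With all peaks, basal cells alone held 3 of the 12 sites (25.0%, against 15.5%), fMaSC alone 1 (8.33%, against 13.5%) and luminal progenitors alone 1 (8.33%, against 4.76%). The other 2 were fMaSC with basal cells and fMaSC with mature luminal cells. In tiles of 105 kb the median was 3 peaks for basal cells and fMaSC and 2 for each luminal type. Between 14.5% and 19.4% of tiles held at least as many peaks as the Wap window did, by list.

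**Figure D5:**
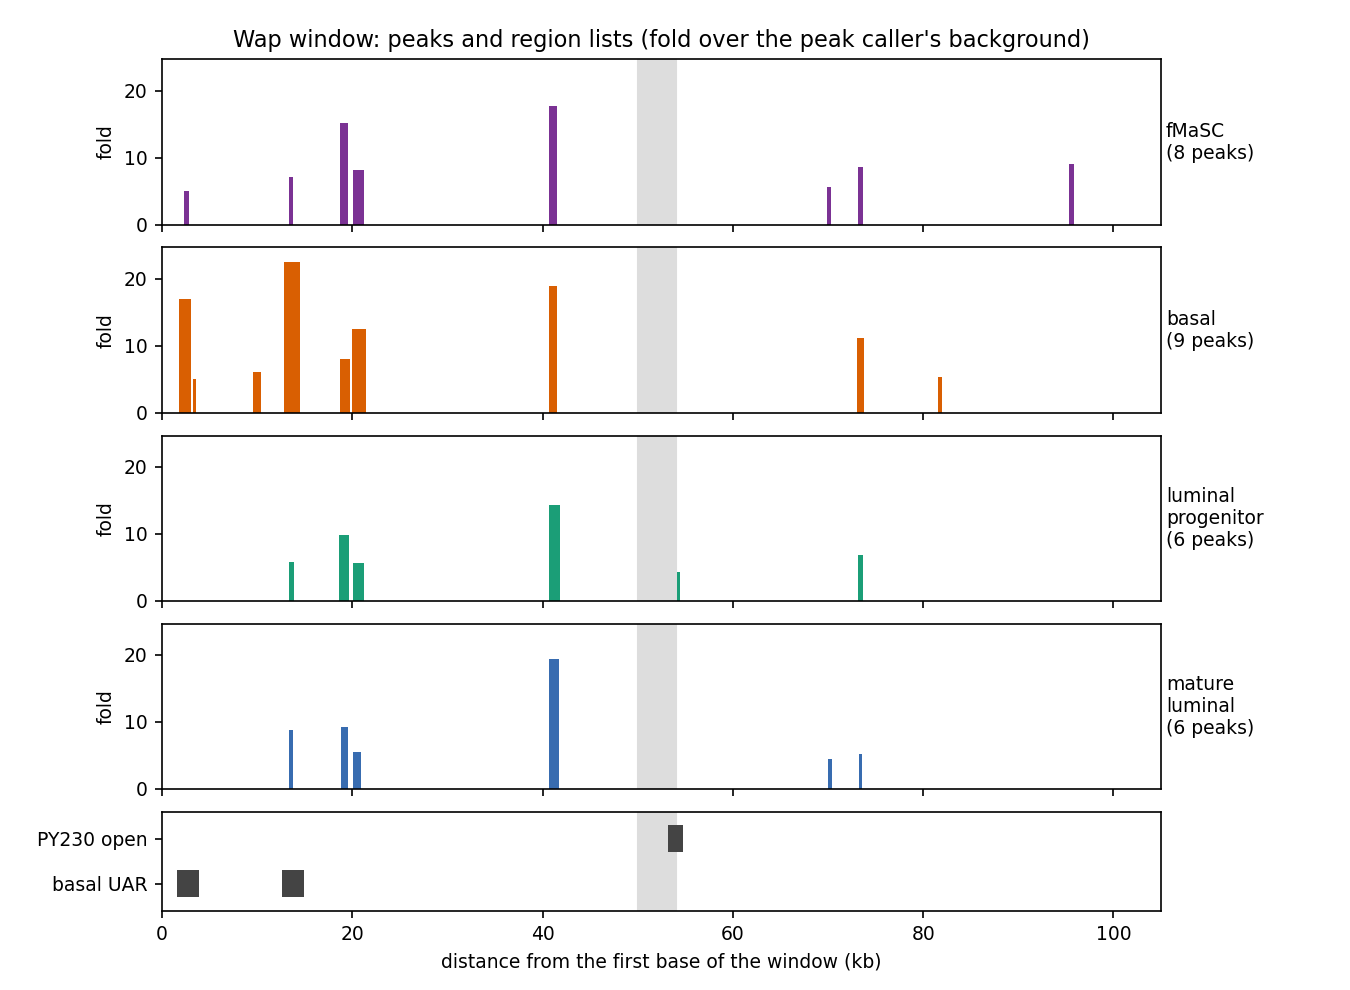
Peaks of the 4 normal cell types in the Wap window, and entries of the basal UAR and PY230 open lists below. The horizontal axis is the distance in kb from the first base of the window, bar height is the authors' fold, the narrowest bars are widened slightly so that they stay visible, and the grey band is the approximate mm9 interval of Wap. The site at 40.7 kb is high in all 4 types, with folds from 14.3 to 19.4. The luminal progenitor peak at 54.2 kb lies at the edge of the band and inside the PY230 open entry.

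The most evenly shared site lay on the lower-coordinate side of Wap, the Tbrg4 side in the GRCm38.p6 order, at chr11:6525674-6526797. It was the strongest Wap-window peak of fMaSC (fold 17.7), luminal progenitors (14.3) and mature luminal cells (19.4), and second in basal cells (19.0). Its rank was above 85.0% to 88.6% of each list. Of the 9 sites shared by all types at both loci, no other lay within 5 percentage points across the 4 lists.

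The highest basal peak of the window lay farther out on the same side. At chr11:6497792-6499468 the basal fold was 22.4 over 1677 bp, rank 5275 of 80294. Peaks of the other types there were 414 to 501 bp wide, with a fold of 8.72 in mature luminal cells, 7.09 in fMaSC and 5.82 in the progenitors. This site lay in a basal UAR, chr11:6497601-6499900, with a score of 805, rank 4200 of 5144. Another basal UAR, chr11:6486601-6488900, had a score of 2777 and rank 1419. It held a basal peak with a fold of 17.0 over 1311 bp, a second basal peak of 334 bp at a fold of 4.96, and an fMaSC peak of 503 bp at a fold of 5.06. Thus 3 of 9 basal peaks lay in a basal UAR, compared with 7.67% of all basal peaks, while at the caseins 0 of 5 did. The nearer UAR was 35.1 kb from the Wap interval, and neither can be assigned to Wap rather than to a neighbouring gene from these files.

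The remaining shared sites varied by type. At chr11:6503647-6504742 fMaSC had a fold of 15.2 (above 82.1% of its list), luminal progenitors 9.77 (above 69.0%), mature luminal cells 9.22 (above 54.5%) and basal cells 7.98 (above 48.5%). The neighbouring site chr11:6504955-6506401 was led by basal cells, with a fold of 12.5 above 70.1% of the list. There fMaSC had 8.10, luminal progenitors 5.61 and mature luminal cells 5.48. On the Ramp3 side, chr11:6558050-6558812 had folds of 11.2 in basal cells, 8.61 in fMaSC, 6.86 in the progenitors and 5.23 in mature luminal cells. Sites of 1 type on this side were chr11:6566593-6567018 in basal cells (fold 5.39) and chr11:6580330-6580875 in fMaSC (fold 9.12). The site held by fMaSC and mature luminal cells, chr11:6554974-6555373, was low in both, with folds of 5.57 and 4.48.

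The normal peak closest to the Wap interval was small and came from luminal progenitors. It spanned chr11:6539153-6539425, 273 bp, and began 0.153 kb past the rounded end of the Wap interval. Its fold was 4.36, rank 50586 of 60030, so that 11.7% of the list was lower. Wap lies on the minus strand, which places the start of transcription at this end of the gene, the end whose upstream sequence is printed above as the Wap promoter. The interval is rounded and no exact mm9 start was at hand, so whether the peak overlaps that sequence is not known. In the other 3 types no peak came nearer to the interval than 8.29 to 8.50 kb. By its rank, the luminal progenitor peak was absent when only the 30015 strongest peaks of each list were kept.

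Of the PY230 lists, one is named open and one closed in cells high in SOX10, an HMG-box transcription factor, and the labels tie them to the luminal tumour samples. The open list held 3208 regions over the genome, of which 2 fell in these windows, 1 at the caseins and 1 at Wap. The Wap entry, chr11:6538201-6539800, was 1600 bp wide, overlapped the end of the Wap interval and contained the whole luminal progenitor peak. It overlapped peaks of luminal progenitors and of no other normal type, as did 483 of the 3208 open regions (15.1%). Its score of 27.3 was near the bottom of the list, rank 2824, against a median of 44.5 and a lowest score of 20.2.

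The casein entry, chr5:88014801-88015800, was 1000 bp wide with a score of 34.1, rank 2274 of 3208. It covered the site described above with peaks in fMaSC, luminal progenitors and mature luminal cells, a combination found in 43 open regions (1.34%). In all, 2 of 35 merged sites of both windows overlapped the open list, against 1.88% of all merged regions, and 0 of 35 were in the closed list, against 11.0%. The closed list had no entry in either window. How the score was computed, and from which of the tumour samples, is not stated by the labels, so no error is attached to either entry.

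URR lists of all 4 types, and UAR lists of luminal progenitor and mature luminal cells, had no entry in either window. Several of these lists are short, with 27 luminal progenitor, 71 basal and 242 fMaSC URRs and 306 luminal progenitor UARs in the whole genome. Nothing about the milk protein loci is read from their absence.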

How the data were processed

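Of 20 ATAC-seq samples in 10 groups, the labels tie the 14 lists, used as deposited, to the 8 normal samples and 6 luminal PY230 samples. The other groups were not analysed here. For the 4 normal types the authors deposited MACS2 peaks made from sample 1 plus sample 2, with 0.001 as q-value limit, per the list names in the labels, and the fold of each peak is a ratio over the caller's background. The folds of each list were whole multiples of 1 step (0.208 to 0.253, within 0.05 of a step for 100% of peaks). The 8 UAR and URR lists and 2 PY230 lists carry a score deposited by the authors, whose scale is not given. Their edges lie on a 100 bp grid. Besides the mm9 build, SICER, MACS2 2.1.1, Bowtie 0.12.8, bedtools 2.20.1, SAMtools 1.3.1 and FastQC are listed by the submitters' processing notes, without role or order. For duplicates, repeats and the Tn5 offset, the treatment was not given in the sources used here. All 3 bear on which peaks exist.

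Coordinates are 1-based: peaks were kept as deposited, and grid lists moved by 1 base. Mitochondrial peaks (3 per list) were left out. Overlap meant at least 1 shared bp. Ranks were taken within a list. No test was made. Every entry in the windows was accounted for, and those described in full were the 3 highest folds of each list, sites of all 4 types and all entries of the other lists. The windows, members and motifs were chosen with earlier results of these data known, as were the groupings of sites. Counts of peaks at marker genes and at other genes of the milk pathway needed mm9 gene positions and were not made here. Python 3.11.15, numpy 2.4.6, pandas 2.3.3 and scipy 1.17.1 were used. Overlap and merging were tested on simulated data against bedtools 2.31.1.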

Additional observations from a re-analysis of the deposited data

How the results depend on the processing

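Of 127 alternative values for 55 results, 99 stayed within 1.5 times the main value (for ranks, within a binomial interval on the number of entries) and 28 moved. Of the 28, 16 came from keeping the strongest peaks, 6 from the median fold, 5 from longer windows and 1 from the strand. Limited to 30015 peaks per list, the strongest, the casein window held 8 fMaSC, 0 basal, 7 luminal progenitor and 3 mature luminal peaks, and the Wap window 2, 5, 3 and 3. Merged sites then numbered 10 at the caseins (0 of all 4 types, 0 of luminal progenitors alone, 3 of fMaSC alone) and 6 at Wap (1 of all 4 types, 2 of basal cells alone, 0 of luminal progenitors alone, 0 of fMaSC alone). Sites of fMaSC and luminal progenitors alone at the caseins numbered 4 against 5, but were mostly not the same sites. Only chr5:88001804-88003065 was in that class before, and the rest had a peak in all 4 types with all peaks. Of the sites of fMaSC alone, only chr5:88372294-88372977 was in its class before, and the rest had lost a luminal progenitor peak. Neither Wap site of basal cells alone was in that class with all peaks. Over the genome, all 4 types then made up 25.3% of merged regions. The share was 7.41% for luminal progenitors alone, 10.9% for fMaSC alone, 10.9% for basal cells alone and 2.94% for fMaSC with luminal progenitors and no other type. Limited to peaks that reach the median fold of their list, the caseins held 1 basal, 7 luminal progenitor and 3 mature luminal peaks, and Wap 5 fMaSC, 3 luminal progenitor and 3 mature luminal peaks. Windows longer by 50 kb on each side gave 16 basal, 11 luminal progenitor and 12 mature luminal peaks at Wap, with 1 mature luminal UAR and 1 closed PY230 region, so the absence of both holds for the 105 kb window only. Csn1s2a had 1 motif match on the given strand against 2 on both. Ranking by width in place of fold put the median Wap entry of mature luminal cells above 56.2% of its list, against 34.4%. For the median casein entry of luminal progenitors it gave 38.8% against 23.7%. All 8 values ranked by width stayed within the interval and are not among the 28. Requiring 50% of an entry in the window, merging within 500 bp and a fixed width of 500 bp moved no result. Moving tiles by 50%, an alternative chosen after seeing the data, gave 4.53% against 4.56%. No paired analysis was possible because each list combines its samples, and for the same reason no sample could be left out. Depth per sample is unknown, so a site without a peak may be one below the caller's threshold.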
